A study of Mus musculus with 10 samples.

Results

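The 10 genes described here encode enzymes that remove superoxide and hydrogen peroxide: the 6 peroxiredoxins (Prdx1 to Prdx6), the 3 superoxide dismutases (Sod1, Sod2 and Sod3) and catalase (Cat). They were listed by symbol and found by NCBI gene ID, and are 10 of the 46152 genes counted and of the 28419 tested, since all 10 passed the filter on low counts. RNA came from CD11b+ microglia of the brains of C57BL/6J mice, enriched on a Percoll gradient and then with CD11b magnetic beads. For 8 days, 5 mice received GW2580, an inhibitor of the CSF1 receptor kinase, by oral gavage at 80 mg/kg/d, and 5 received the vehicle alone, which was Tween 80 with a cellulose carrier. Each group held 2 male and 3 female mice, 8 to 12 weeks old, and each library is 1 mouse. The whole animal was dosed, and a CD11b selection also takes monocytes and granulocytes.

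Superoxide dismutases turn superoxide into hydrogen peroxide, and peroxiredoxins and catalase then break the peroxide down. Sod1 works in the cytosol with copper and zinc, Sod2 in the mitochondrial matrix with manganese, and Sod3 outside the cell. Prdx1, Prdx2 and Prdx6 are mainly cytosolic, Prdx3 and Prdx5 are mitochondrial (Prdx5 also lies in peroxisomes and the cytosol), Prdx4 sits in the endoplasmic reticulum and can be secreted, and Cat is peroxisomal. In microglia, which make superoxide with an NADPH oxidase, these enzymes limit the oxidant load on the cell itself. GW2580 blocks the receptor for CSF1 and IL-34, on which microglia depend. The comparison asks how the drug changed their transcripts.

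Of the 10 genes, 7 were lower with GW2580 past the study's thresholds, a fold change over 2 with an unadjusted p under 0.05, and none was higher. All 10 had a log2 fold change below 0, as did 51.6% of all genes tested. Of all genes tested, 6.7% were called lower and 4.01% higher (1905 and 1141 genes). The study reported far fewer genes past these thresholds, also with more lower than higher, so its count was not reproduced here. The called members were all 4 cytosolic ones (Prdx1, Prdx2, Prdx6 and Sod1), 2 of the 3 mitochondrial ones (Prdx5 and Sod2) and 1 of the 2 secreted ones (Sod3). Prdx3, Prdx4 and Cat were not called. Without vehicle 2 and vehicle 5, when 3.42% of all genes were called lower, Prdx1 and Prdx5 were called, and Prdx2, Prdx6, Sod1, Sod2 and Sod3 were not. Without vehicle 5 alone, Sod3 was not. The median log2 fold change of the 10 genes was -1.31, against -0.03 over all genes. Prdx1, Prdx2, Prdx5 and Sod2 stand on lists that the study picked from these same libraries, so their direction here is not independent evidence. By qRT-PCR, the study also reported lower Prdx2 and Prdx5 in primary microglia cultured with GW2580, another system than these libraries. No gene of the genome-wide table had an adjusted p under 0.05 in edgeR's quasi-likelihood test (the smallest was 0.280), 4186 genes had an unadjusted p under 0.05, and DESeq2 put 177 genes under an adjusted p of 0.05.

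The promoters of 3 called members are printed because they hold, or lack, the letters of the antioxidant response element, the site through which Nfe2l2 (NRF2) acts. They are the 250 bases before the start site, from RefSeq on GRCm38.p6, plus strand, with matches to the element's core in capitals.
Prdx1 (chr4:116685349-116685598): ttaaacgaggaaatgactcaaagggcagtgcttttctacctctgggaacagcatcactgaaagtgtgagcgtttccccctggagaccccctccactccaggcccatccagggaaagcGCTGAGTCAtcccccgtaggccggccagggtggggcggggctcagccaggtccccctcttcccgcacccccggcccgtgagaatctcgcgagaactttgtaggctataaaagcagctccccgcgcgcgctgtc
Sod1 (chr16:90220512-90220761): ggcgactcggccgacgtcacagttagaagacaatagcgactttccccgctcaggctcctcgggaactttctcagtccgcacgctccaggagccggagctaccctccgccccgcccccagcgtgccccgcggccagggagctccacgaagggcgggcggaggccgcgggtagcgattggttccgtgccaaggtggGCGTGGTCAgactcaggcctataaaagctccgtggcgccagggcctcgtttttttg
Sod2 (chr17:13007589-13007838): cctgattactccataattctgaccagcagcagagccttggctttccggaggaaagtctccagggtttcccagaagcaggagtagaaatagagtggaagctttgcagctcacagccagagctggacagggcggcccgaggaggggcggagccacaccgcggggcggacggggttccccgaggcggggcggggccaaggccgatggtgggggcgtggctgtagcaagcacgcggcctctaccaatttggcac

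The table of promoters held 8 of the 10 members (Prdx6 and Sod3 had no entry), each with 300 bases around the start. The core of the antioxidant response element, TGACNNNGC on either strand, was found in 2 of the 8, against 12.4% of 32851 promoters. In Prdx1 the match was on the minus strand and began at position -133 from the start, and in Sod1 it was also on the minus strand and began at position -56. The GC box, GGGCGG on either strand, was in 8 of 8 member promoters and in 35.7% of all promoters, with 4 copies each in the Sod1 and Sod2 windows, 3 in that of Prdx4 and 1 in each of the other 5. CCAAT was in 4 of 8 (37.4% of all), TATAAA in 3 of 8 (13.6%) and the FOXO letters GTAAACA in 0 of 8 (3.65%). No match to another motif shared a base with the core matches printed above. A match describes the letters only, and the called members were among both the promoters with the core and those without it.

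Exon counts were 12550418 to 20854218 fragments per vehicle library and 13228819 to 26079343 per GW2580 library. On the first principal component of 7580 genes (47.1% of the variance), vehicle 1 to 4 lay between 35.0 and 40.5, while vehicle 5 lay at -77.9, beyond the GW2580 side. GW2580 1, 3 and 4 lay between -46.4 and -37.8, GW2580 2 lay at 5.2 and GW2580 5 at 45.8, on the vehicle side. Microglial markers summed to 14206 (vehicle 5) to 61127 CPM (counts scaled to library size after correction by edgeR's trimmed mean of M-values, TMM, as are all CPM given here) with vehicle and 18862 (GW2580 4) to 65311 CPM with GW2580. Aif1, 1 of the 11 microglial markers, and the endothelial Cldn5 were listed at 0 in every library, and both genes are also placed on alternative contigs. The other microglial markers did not move alike. With vehicle, C1qb ran from 2277 (vehicle 5) to 18895 CPM, and Tmem119 from 2710 (vehicle 5) to 4264 CPM. In vehicle 5, Cx3cr1 lay within the range of vehicle 1 to 4, Sall1 above it and the rest below it. In GW2580 4, Tmem119, Cx3cr1 and Sall1 lay within the range of the other GW2580 libraries, and the rest below it. Vehicle 2 and vehicle 5 held the most glial RNA. Oligodendrocyte markers summed to 17606 and 3913 CPM there, against 159 to 313 CPM in the other vehicle libraries and 174 to 1741 CPM with GW2580. Astrocyte markers summed to 3353 and 1288 CPM in vehicle 2 and vehicle 5, against 198 to 658 CPM elsewhere. Vehicle 5 also held 25669 CPM of choroid plexus and ependymal markers, against 151 to 3525 CPM in the other 9 libraries, and 2144 CPM of erythroid markers, against 43.2 to 396 CPM. In bulk RNA, fewer cells of a type and less RNA per cell cannot be told apart.

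**Figure D1:**
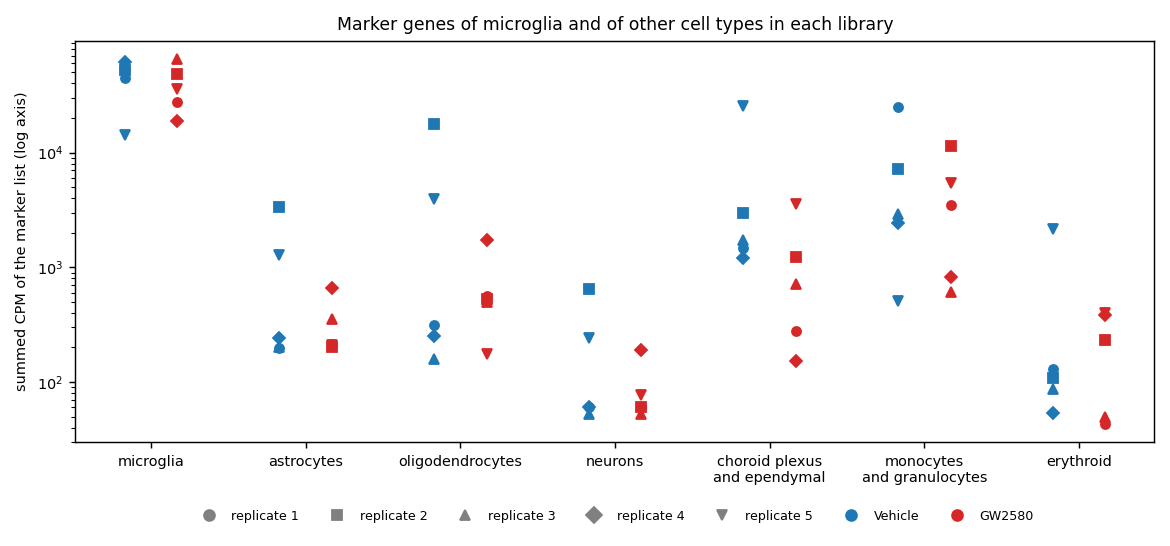
Summed CPM (log axis) of the marker genes of 7 cell types in each library, vehicle in blue and GW2580 in red, with 1 symbol per replicate number. Vehicle 2 and vehicle 5 stand above the other libraries in oligodendrocyte, astrocyte and neuronal markers, and vehicle 5 is lowest in microglial markers and highest in choroid plexus and erythroid markers.

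Prdx1 (NCBI gene 18477, chr4:116685599-116700000) encodes the main cytosolic peroxiredoxin, a 2-Cys enzyme that is reduced by thioredoxin. In vehicle 1 to 5 it was at 326, 601, 389, 445 and 439 CPM. In GW2580 1 to 5 it was at 117, 249, 240.0, 69.4 and 229 CPM. All 5 GW2580 libraries lay below all 5 vehicle libraries, a separation that 0.985% of the tested genes had (280 genes), and GW2580 1 and 4 were the lowest. The log2 fold change was -1.28 ± 0.40 (SE), and edgeR gave p = 0.00635 before and 0.280 after adjustment, beside an exact permutation p of 0.00794. That p, two-sided over every division of the 10 libraries into 5 and 5, is the smallest the exact permutation test can give here. Without vehicle 2 and vehicle 5 the log2 fold change was -1.10.

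Prdx2 (gene 21672, chr8:84969622-84974811) encodes the second cytosolic 2-Cys enzyme, abundant in red cells and neurons. It was at 89.1, 217, 95.9, 105 and 246 CPM in vehicle 1 to 5. In GW2580 1 to 5 it was at 34.5, 92.4, 82.5, 24.9 and 64.0 CPM. Vehicle 2 and vehicle 5 were more than double the other vehicle libraries, and 4 of the 5 GW2580 libraries lay below every vehicle library. The change on the log2 scale was -1.34 ± 0.45 (SE; edgeR p = 0.00966, adjusted p = 0.280, exact permutation p = 0.0159). Without vehicle 2 and vehicle 5, the libraries with the most glial marker RNA, it was -0.71 (edgeR adjusted p = 0.427) and no longer called.

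Prdx6 (gene 11758, chr1:161240112-161251210) encodes the 1-Cys peroxiredoxin, which is reduced by glutathione, also has phospholipase activity and is strong in astrocytes. It was at 152, 596, 68.9, 76.9 and 453 CPM in vehicle 1 to 5. With GW2580 the values were 80.1, 162, 76.2, 79.8 and 55.4 CPM. Only vehicle 2 and vehicle 5 stood above all GW2580 libraries, and vehicle 1, 3 and 4 lay within the GW2580 range. In edgeR the log2 fold change was -1.57 ± 0.59 (SE; p = 0.0189, adjusted p = 0.280), while the exact permutation test on log2 values gave p = 0.198. Without vehicle 2 and vehicle 5 the log2 fold change was -0.14 (edgeR adjusted p = 0.883), and the astrocyte marker sums of those 2 libraries were the highest of all 10. The part of astrocytes in the Prdx6 reads was not tested.

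Sod1 (gene 20655, chr16:90220762-90226333) encodes the copper and zinc superoxide dismutase of the cytosol. It was at 37.0, 65.2, 33.0, 28.3 and 45.1 CPM in vehicle 1 to 5. In GW2580 1 to 5 it was at 6.47, 16.3, 16.7, 4.92 and 36.6 CPM, from at least 104 counts per library. The first 4 GW2580 libraries lay below every vehicle library, and GW2580 5 lay within the vehicle range. The log2 fold change came to -1.37 ± 0.49 (SE; edgeR p = 0.0142, adjusted p = 0.280, exact permutation p = 0.0238). It was -1.02 without vehicle 2 and vehicle 5 (edgeR adjusted p = 0.365), no longer called, and -1.99 without vehicle 5 and GW2580 5, 2 libraries that were chosen because each sat nearer the other group.

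Among the mitochondrial members, Sod2 (gene 20656, chr17:13007839-13018119), the manganese superoxide dismutase, was at 82.4, 146, 76.6, 81.4 and 149 CPM in vehicle 1 to 5. In GW2580 1 to 5 it was at 30.1, 67.7, 55.5, 22.5 and 51.1 CPM. As for Prdx1, every GW2580 library lay below every vehicle library. Its log2 fold change was -1.24 ± 0.38 (SE; edgeR p = 0.00526, adjusted p = 0.280, exact permutation p = 0.00794). Without vehicle 2 and vehicle 5 it was -0.83 (edgeR adjusted p = 0.353), under the 2-fold threshold.

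Prdx5 (gene 54683, chr19:6906697-6910106), an atypical 2-Cys enzyme, was at 674, 530.5, 308, 278 and 320.4 CPM in vehicle 1 to 5. It was at 90.4, 290, 137, 45.3 and 189.9 CPM in GW2580 1 to 5. GW2580 2 lay within the vehicle range and the other 4 GW2580 libraries below it. The change on the log2 scale was -1.49 ± 0.48 (SE; edgeR p = 0.00792, adjusted p = 0.280, exact permutation p = 0.0159), and -1.49 also without vehicle 2 and vehicle 5. Monocyte and granulocyte markers, of cells that the CD11b selection also takes, summed to 24900, 7125, 2937, 2420 and 506 CPM in vehicle 1 to 5. In GW2580 1 to 5 they summed to 3455, 11366, 613, 822 and 5441 CPM. Vehicle 1 and vehicle 2 were the highest vehicle libraries in both these sums and Prdx5, and GW2580 2 and GW2580 5 the highest GW2580 libraries in both, while vehicle 5 had the lowest sum of all and the third highest Prdx5 level. The part of these cells in the Prdx5 reads was not tested. Of its 1271 exon bases, 409 (32.2%) are shared with Trmt112 on the opposite strand. Reads were counted without strand, and the counting set aside fragments that could not be given to 1 gene (0.486% to 0.964% of the records per library). Fragments that lie within that stretch therefore add no counts to Prdx5.

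Prdx3 (gene 11757, chr19:60864066-60874538), the 2-Cys enzyme of the mitochondrial matrix, was at 48.6, 73.2, 56.1, 57.6 and 116 CPM in vehicle 1 to 5. With GW2580 it was at 35.0, 56.1, 76.7, 23.1 and 44.5 CPM. The groups overlapped, with GW2580 3 above all vehicle libraries but vehicle 5. A log2 fold change of -0.58 ± 0.37 (SE) did not pass (edgeR p = 0.143, adjusted p = 0.470, exact permutation p = 0.135).

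Of the secreted members, Prdx4 (gene 53381, chrX:155323918-155342272), which helps fold proteins in the endoplasmic reticulum, was at 44.6, 57.3, 51.1, 60.0 and 23.7 CPM in vehicle 1 to 5. With GW2580 it was at 18.8, 45.5, 38.3, 9.56 and 29.4 CPM. Vehicle 5 was the lowest vehicle library, the reverse of its place for Prdx2 and Prdx3. At -0.74 ± 0.41 (SE) its log2 fold change did not pass (edgeR p = 0.0929, adjusted p = 0.403, exact permutation p = 0.0952). Without vehicle 5 it was -0.91 (edgeR adjusted p = 0.187), still under 2-fold, and without vehicle 5 and GW2580 5 it was called at -1.02 (adjusted p = 0.0807).

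Sod3 (gene 20657, chr5:52363804-52369738), the extracellular superoxide dismutase, was at 5.12, 16.1, 6.18, 5.45 and 289 CPM in vehicle 1 to 5. With GW2580 it was at 4.67, 8.37, 7.83, 6.63 and 6.30 CPM, within the range of vehicle 1 to 4 but for GW2580 1 below it. Vehicle 5 alone carried the difference: it had a log2 fold change of -3.25 ± 1.05 (SE; edgeR p = 0.00789, adjusted p = 0.280), but the exact permutation p was 0.389, and without vehicle 5 the log2 fold change was -0.28 (edgeR adjusted p = 0.644). In vehicle 5 the choroid plexus gene Ttr stood at 24921 CPM, Folr1 at 622 CPM and Foxj1, a factor of ciliated cells, at 123 CPM, while the other 4 genes of the 7-gene list were low: Kl was at 0.169 CPM, against 0 to 0.140 CPM elsewhere, and Ccdc153 (0.393 CPM), Rarres2 (0.786 CPM) and Tmem212 (1.24 CPM) were below or within the range of vehicle 1 to 4. In the other 9 libraries Ttr was between 135 and 3497 CPM. The part of these cells in the Sod3 reads was not tested.

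Cat (gene 12359, chr2:103453904-103485153), the peroxisomal catalase and an abundant red cell enzyme, was at 59.5, 67.0, 66.7, 61.7 and 367 CPM in vehicle 1 to 5. In GW2580 1 to 5 it was at 96.9, 102.5, 169.6, 69.4 and 46.6 CPM. The first 4 GW2580 libraries lay above vehicle 1 to 4, vehicle 5 above all others and GW2580 5 below all others. The log2 fold change came to -0.36 ± 0.56 (SE; edgeR p = 0.530, adjusted p = 0.781, exact permutation p = 1.0). Without vehicle 5 it turned to 0.61 (edgeR adjusted p = 0.312), and without vehicle 5 and GW2580 5 to 0.68 (adjusted p = 0.124). The erythroid genes Hba-a1 and Alas2 stood at 818 and 250.0 CPM in vehicle 5, against 13 to 176 and 1.44 to 52.4 CPM in the other libraries. The isolation included a step that lysed red cells, and the part of any that remained in the Cat reads was not tested.

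**Figure D2:**
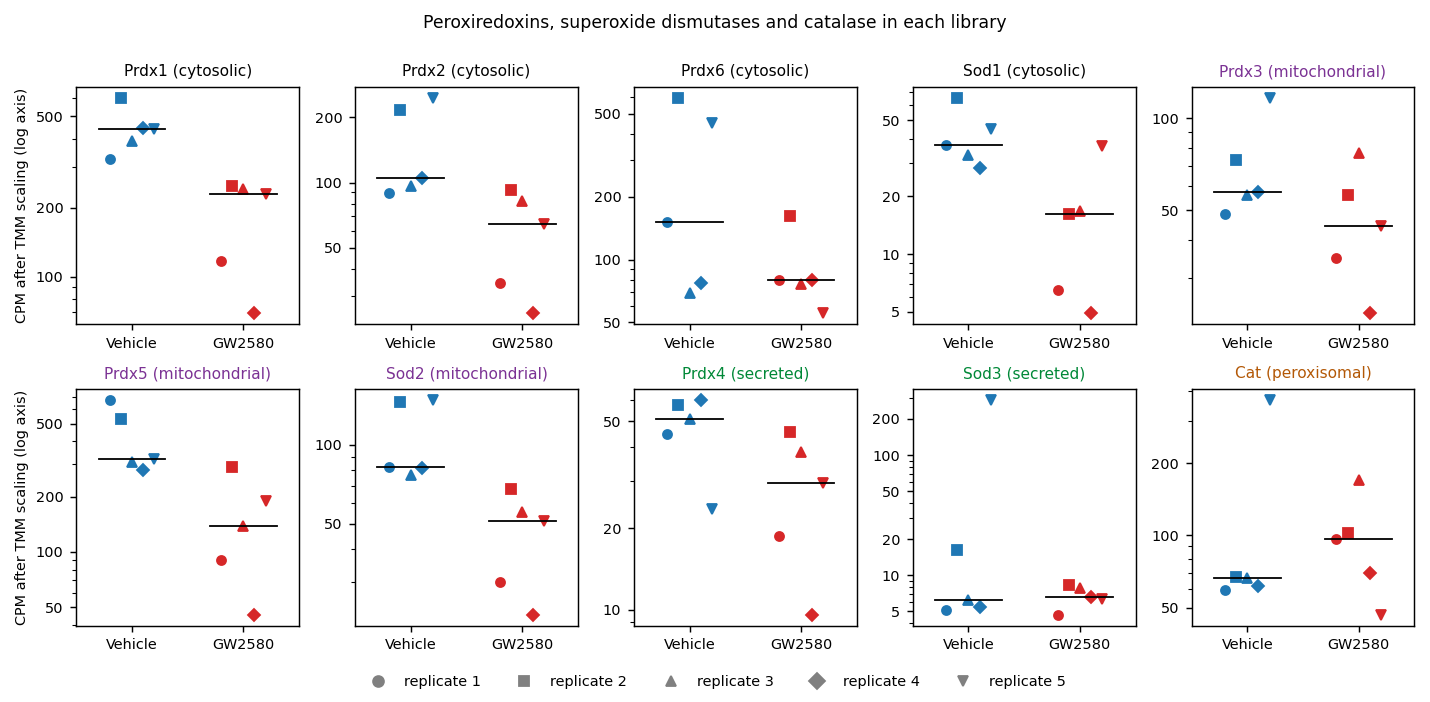
CPM after TMM scaling (log axis, a scale of its own in each panel) of the 10 genes in 5 vehicle (blue) and 5 GW2580 libraries (red), with 1 symbol per replicate number and a line at each group's median. Prdx1 and Sod2 separate the groups, while Sod3 and Cat have 1 vehicle library, vehicle 5, far above the other 4.

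**Figure D3:**
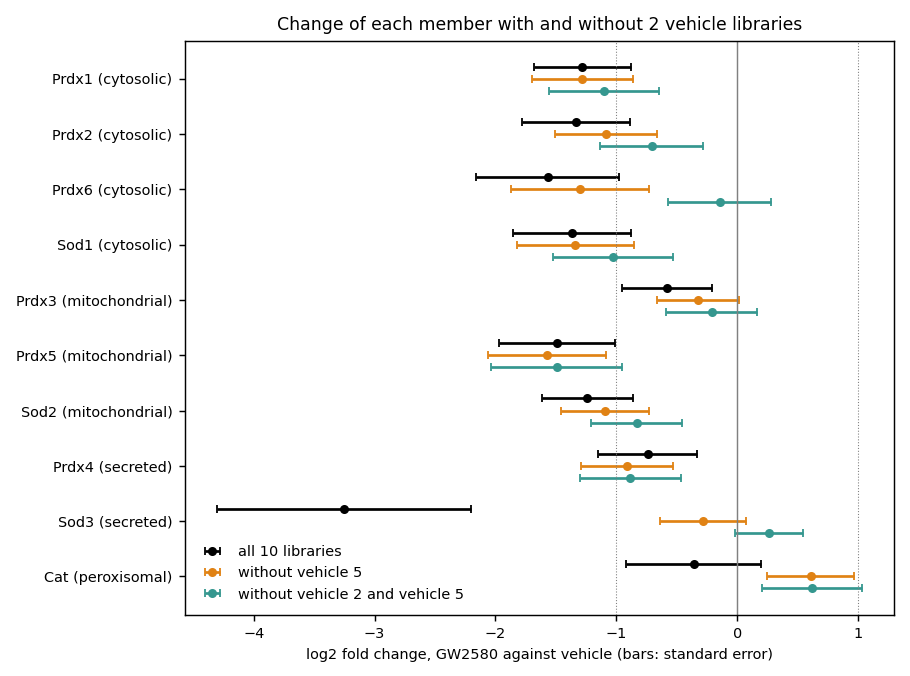
Log2 fold change of GW2580 against vehicle with its standard error for each gene, from all 10 libraries (black), without vehicle 5 (orange) and without vehicle 2 and vehicle 5 (green); dotted lines mark 2-fold. Prdx1 and Prdx5 stay beyond 2-fold and called in all 3 fits, Prdx6 moves from -1.57 to -0.14, Sod3 from -3.25 to 0.26 and Cat from -0.36 to 0.62.

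Without vehicle 2 and vehicle 5, Prdx1 and Prdx5 were the 2 members still called, against a background of 3.42% of genes called lower in that fit. Without vehicle 5 alone, 6 members were called (background 6.74%), all but Sod3 of the original 7. Without vehicle 5 and GW2580 5, 6 members were called, Prdx4 among them and Prdx6 and Sod3 not (background 15.2%). In that fit Prdx1, Prdx5, Sod1 and Sod2 had an adjusted p under 0.05 in edgeR, as did 4844 genes, 17.8% of those tested. These 2 libraries were left out because each sat nearer the other group, a choice that itself widens the separation of the groups. With the replicate number as a block, 5 members were called (background 5.27%). Other measures moved with the members. GW2580 1 and 4, the lowest libraries for Prdx1, Prdx2, Prdx5, Sod1, Sod2, Prdx3 and Prdx4, had the largest shares of unique alignments that fell outside annotated exons (68.0% and 70.8%, against 47.1% to 64.7% in the other 8 libraries). They also had the lowest mean log2 CPM over 79 cytosolic ribosomal protein genes (4.10 and 3.55, against 5.14 to 7.0). With the share on no exon as a covariate, Prdx1 and Prdx5 were still called (background 2.86% of genes called lower). In that fit Sod2 was at -0.87 and Prdx2 at -0.80, both with an unadjusted p under 0.05 but under 2-fold, while Sod1 was at -1.09 with an unadjusted p above it. With the mean of the glial and neuronal markers as a covariate, Prdx1, Prdx5, Sod1 and Sod2 were called (background 3.31%), and Prdx2 was at -0.98, just under 2-fold. With the ribosomal mean as a covariate, Prdx2, Prdx6, Sod2 and Sod3 were called (background 6.2%), and Prdx1 was at -0.93, Sod1 at -0.95 and Prdx5 at -0.88.

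To compare compartments on a scale that does not depend on the scaling factor, 4 log2 ratios were taken within each library. The ratio of mitochondrial Prdx3 to cytosolic Prdx1 averaged -2.69 ± 0.45 (SD, n = 5) with vehicle and -1.89 ± 0.34 with GW2580, a difference of 0.79 (exact permutation p = 0.0238, adjusted over 4 ratios 0.0952). Vehicle 1 to 4 lay between -3.03 and -2.74, and vehicle 5 at -1.92, within the GW2580 range of -2.36 to -1.58. This ratio describes Prdx3 and not the mitochondrial peroxiredoxins as a set. No ratio was taken for Prdx5, whose log2 fold change (-1.49) lay below that of Prdx1 (-1.28). The ratio of Prdx4 to Prdx1 averaged -3.25 ± 0.57 with vehicle and -2.70 ± 0.20 with GW2580, a difference of 0.55 (exact permutation p = 0.0476, adjusted 0.0952). In 4 of 5 GW2580 libraries it lay above every vehicle library. Vehicle 5 stood at -4.20 and vehicle 1 to 4 between -3.39 and -2.86. Without vehicle 5 the difference was 0.31 (exact permutation p = 0.0794), and without vehicle 2 and vehicle 5 it was 0.19 (exact permutation p = 0.214). Neither ratio passed after adjustment.

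Of the dismutases, the ratio of Sod2 to Sod1 averaged 1.35 ± 0.25 with vehicle and 1.72 ± 0.72 with GW2580, a difference of 0.37 (exact permutation p = 0.349, adjusted 0.466). GW2580 5 was the lowest library at 0.48 and the other 4 GW2580 libraries, at 1.72 to 2.20, lay above all vehicle libraries. Without GW2580 5 the difference was 0.68 (exact permutation p = 0.0159). The ratio of Sod3 to Sod1 averaged -1.38 ± 2.29 with vehicle and -0.92 ± 1.07 with GW2580, a difference of 0.46 (exact permutation p = 0.738, also after adjustment). Vehicle 5 stood at 2.68 and the other vehicle libraries between -2.82 and -2.01, and without vehicle 5 the difference was 1.48 (exact permutation p = 0.0476).

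**Figure D4:**
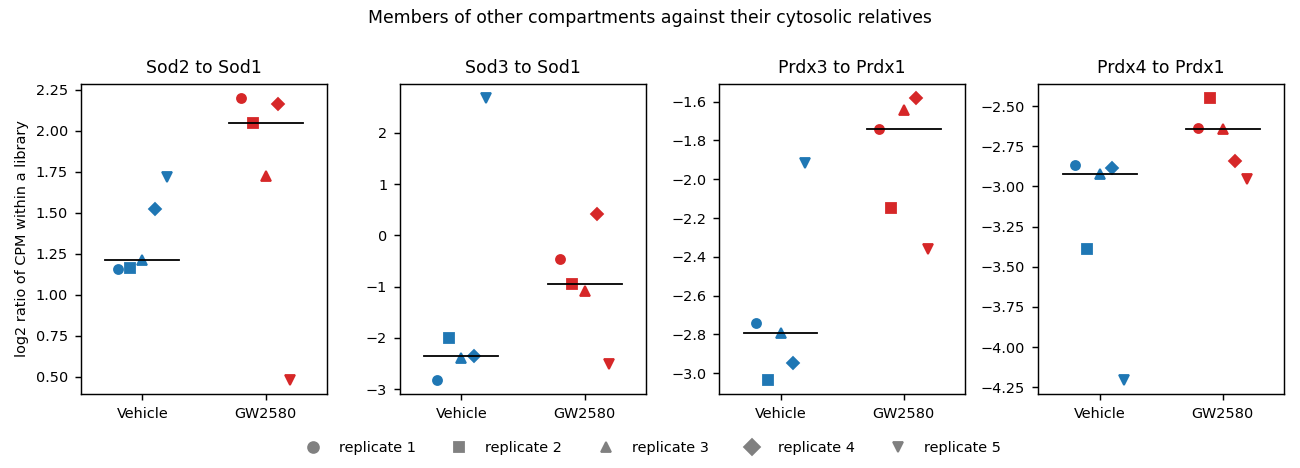
Log2 ratio of the CPM of 2 genes within each library, for Sod2 and Sod3 against Sod1 and for Prdx3 and Prdx4 against Prdx1, with 1 symbol per replicate number and a line at each group's median. GW2580 5 is lowest for Sod2 to Sod1, and vehicle 5 is highest for Sod3 to Sod1 and for Prdx3 to Prdx1 among the vehicle libraries.

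Per kilobase of exon, the vehicle levels ran from Prdx1 (median 310.0 CPM per kb, range 230 to 424) and Prdx5 (252.1, 219 to 530) through Prdx2 (67.7, 57.3 to 158), Sod1 (58.0, 44.4 to 102) and Prdx6 (55.2, 25 to 216). Prdx3 (39.9, 33.6 to 80.5), Cat (26.1, 23.3 to 144), Sod2 (21.6, 20 to 38.9), Prdx4 (17.3, 8.04 to 20.4) and Sod3 (3.02, 2.51 to 141) followed. Prdx5 and Prdx2 were the only neighbours in this order whose ranges did not overlap. These levels use the whole exon length. Over the 862 exon bases that Prdx5 does not share with another gene, its vehicle median would be 372 CPM per kb, above that of Prdx1 (314 on the same basis), and with GW2580 it would be 159 against 163, so the order of these 2 genes depends on the length used. With GW2580, the median levels per kilobase kept Prdx1 (161), Prdx5 (108) and Prdx2 (41.2) at the top. Cat (38.0), Prdx3 (30.8) and Prdx6 (29.0) then stood above Sod1 (25.6), and Sod2, Prdx4 and Sod3 were again the lowest. Within the peroxiredoxin family, per whole exon length, which understates Prdx5, Prdx1 made up 35.5% ± 8.18 (SD, n = 5) of the summed level with vehicle and 35.5% ± 4.00 with GW2580. Prdx3 made up 5.52% ± 1.84 and 9.55% ± 2.40, and Prdx5 37.0% ± 12.1 and 31.1% ± 6.72.

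**Figure D5:**
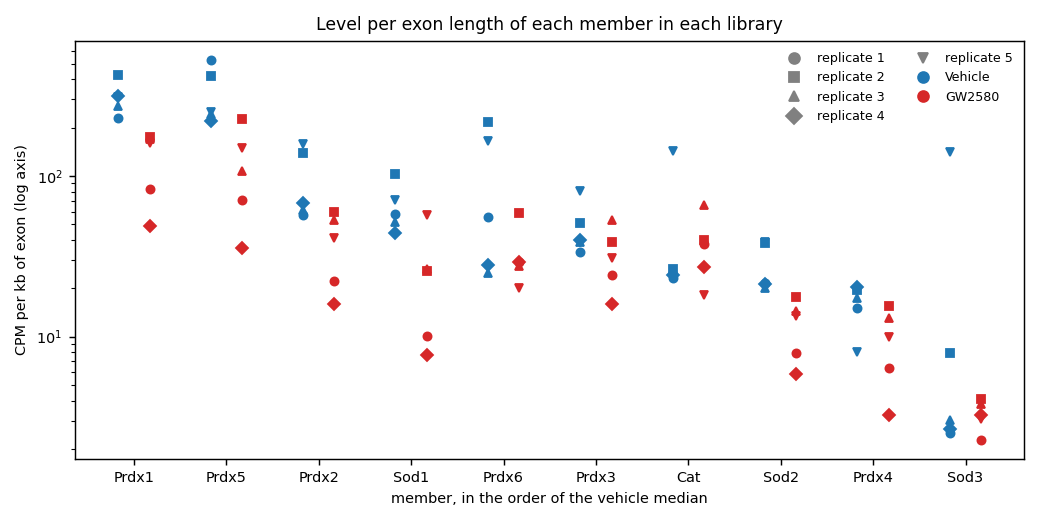
CPM per kilobase of exon (log axis) of the 10 genes in each library, ordered by the vehicle median, vehicle in blue and GW2580 in red, with 1 symbol per replicate number. Prdx1 and Prdx5 lie above the other members in every library, and Sod3 lies lowest in every library but vehicle 5, in GW2580 4 at nearly the level of Prdx4.

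Over the 10 libraries, which share the scaling and the differences in exon share given above, log2 CPM of Prdx2 and Sod2 had r = 0.99, and also 0.99 around the group means. Prdx1 and Sod2 had r = 0.96 (0.89 around the group means). Sod3 and Cat had r = 0.80, which came to 0.21 around the group means without vehicle 5, and Cat and Sod1 had r = 0.0017. Among 7570 genes with a mean of at least 20 CPM, the genes most like the mean of the members' standardised log2 CPM over the 10 libraries were Suclg1 (r = 0.99), Phb (0.99), Dhrs4 (0.99), Skp1 (0.98) and Map1lc3a (0.98). Suclg1 encodes a subunit of succinyl-CoA ligase and Phb the mitochondrial prohibitin.

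Of 36 genes that work with these enzymes, 35 were tested, and 6 were called lower and 0 higher (background 6.7% and 4.01%). Their median log2 fold change was -0.31. Among electron donors and repair enzymes, 4 of 14 were called. Txn2, the mitochondrial thioredoxin that reduces Prdx3 and Prdx5, was at 91.7, 226, 104, 123 and 211 CPM in vehicle 1 to 5. With GW2580 it was at 43.6, 109, 99.8, 38.2 and 69.0 CPM. Of the GW2580 libraries, 3 lay below every vehicle library, with a log2 fold change of -1.07 (edgeR p = 0.0186, exact permutation p = 0.0397). Glrx5, a glutaredoxin of iron-sulfur cluster assembly, lay between 71.5 and 155 CPM with vehicle and between 11.5 and 49.6 CPM with GW2580, with no overlap and a log2 fold change of -1.57 (edgeR p = 0.00274, exact permutation p = 0.00794). Nxn (-1.58) and Sesn3 (-1.07), a nucleoredoxin and a sestrin, were each highest in vehicle 5, at 51.1 and 13 CPM, and their exact permutation p-values were 0.286 and 0.135. Txn1, the cytosolic thioredoxin, had -0.98 (edgeR p = 0.186, exact permutation p = 0.111), with GW2580 5 at 145 CPM and the other GW2580 libraries at 7.15 to 49.6 CPM. Glrx3, a cytosolic glutaredoxin, had -0.94 (edgeR p = 0.0328, exact permutation p = 0.0317), under 2-fold. Txnip, which binds and blocks thioredoxin, had 0.95 (edgeR p = 0.0384, exact permutation p = 0.0714), under 2-fold. Txnrd2, the mitochondrial thioredoxin reductase, was listed at 0 in all libraries and is also placed on 3 alternative contigs.

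Among 10 genes of metal delivery and import, 1 was called. Ccs, the chaperone that loads copper into Sod1, was at 48.4, 90.2, 71.8, 71.0 and 52.4 CPM in vehicle 1 to 5. With GW2580 it was at 16.4, 46.2, 35.7, 12.5 and 37.0 CPM. The groups did not overlap, with a log2 fold change of -1.18 ± 0.38 (SE; edgeR p = 0.00859, adjusted p = 0.280, exact permutation p = 0.00794). Ccs too stands on a list that the study picked from these libraries. Atox1, another copper chaperone, had -0.43 (edgeR p = 0.607, exact permutation p = 0.119), with GW2580 5 at 599.6 CPM and the other GW2580 libraries at 14.4 to 74.3 CPM. Among 11 regulators, Sirt3, a mitochondrial deacetylase that acts on Sod2, was called at -1.30 (edgeR p = 0.0174, exact permutation p = 0.0794), with vehicle 2 and vehicle 5 at 90.9 and 61.8 CPM and the other vehicle libraries at 17.5 to 24.4 CPM. Nfe2l2, the factor of the antioxidant response element, had a log2 fold change of 0.11 ± 0.34 (SE; edgeR adjusted p = 0.904), and its inhibitor Keap1 -0.01 (adjusted p = 0.994). Bach1, a repressor at the same element, lay above every vehicle library in all 5 GW2580 libraries, a separation that 2.04% of genes had. The margin was narrow, with the lowest GW2580 library at 27.98 CPM and the highest vehicle library at 27.93 CPM. Its log2 fold change was 0.77 (edgeR p = 0.0395, exact permutation p = 0.00794), under 2-fold.

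The effect of GW2580 was also compared between male and female mice. The interaction of sex and treatment had an unadjusted p under 0.05 in edgeR for 0 of the 10 members, and the smallest was 0.106 for Sod3. For Sod1 the log2 fold change in males minus that in females was -1.30 ± 1.0 (SE; edgeR adjusted p = 1.0). For Sod3 it was 3.15 ± 1.81 and for Cat 1.45 ± 1.13, and for the other 7 members it lay between -0.38 and 0.25. With 2 male mice in each group, intervals of this width leave room for large differences. Within males, 5 members were called (Prdx1, Prdx5, Prdx6, Sod1 and Sod2), where 14.3% of all genes tested were called lower. Within females 1 was called (Sod3, through vehicle 5), where 2.07% of all genes were called lower. The fold changes of Prdx1 (-1.22), Prdx2 (-1.35), Prdx5 (-1.25), Prdx6 (-1.45) and Sod2 (-1.21) in females were over 2-fold on the log2 scale, with an unadjusted edgeR p above 0.05. Sod1 was at -0.83. Gene copies took few reads: Prdx2-ps1, Prdx6b, Prdx6-ps2 and Prdx2-ps2 were between 0.0562 and 4.47 CPM in all libraries.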

How the data were processed

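The authors sequenced SMART-Seq v4 PLUS cDNA libraries, trimmed reads with Trimmomatic, aligned them to the mouse genome with STAR and deposited 1 table of raw counts per library, made with featureCounts 1.6.3 per the file headers: paired fragments, not strand-specific, over exons of the RefSeq GRCm38.p6 annotation, uniquely aligned. The deposited counts were not normalised. From them, log2 fold changes and p-values were computed with edgeR 4.0.16 (R 4.3.3), TMM scaling, treatment as the only term and genes above 1 CPM in at least 3 libraries, with Benjamini-Hochberg adjustment over all 28419 genes. Standard errors are the fold change over the root of the F statistic. Exact permutation tests used log2 CPM with a prior count of 2. The procedure was tested on simulated data. DESeq2 1.42.0 and limma 3.58.1 served as alternatives, with other scalings, filters, covariates and left-out libraries. Figures used matplotlib 3.10.9.

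The 10 genes and all lists were chosen with earlier results of these data known. All members are named; of the partner genes, those past the thresholds and those whose values are discussed; and the 5 genes most like the members' mean. The labels do not say whether replicate numbers pair mice, though same-numbered mice are of the same sex. Same-numbered libraries deviated from their group means with correlations of 0.080, 0.13, -0.055, -0.069 and -0.39. These values show no likeness of same-numbered libraries, but they cannot decide whether the mice were paired.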

Additional observations from a re-analysis of the deposited data

Results flagged for a closer look

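In 5 of 28 sets of 5 libraries checked, 1 library stood far from the other 4, measured as its gap to the nearest over the whole range. Chance alone marks about 1 in 20 independent sets, but these sets share libraries and genes, so their marks are not independent. Vehicle 5 was the highest vehicle library for Sod3 (gap 0.718 of the range of log2 CPM) and for Cat (0.935). It was also the highest for the log2 ratios of Sod3 to Sod1 (0.853) and Prdx3 to Prdx1 (0.739). GW2580 5 was the lowest GW2580 library for the log2 ratio of Sod2 to Sod1 (0.722).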

How the results depend on the processing

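Over 31 alternatives, Prdx1, Prdx2, Prdx3, Prdx4, Prdx5, Prdx6, Sod1 and Sod2 were lower with GW2580 in all 31, Sod3 in 30 and Cat in 22. Prdx1 and Prdx5 were called in 29, Sod2 in 28, Sod1 in 27, Prdx2 in 26, Prdx6 in 21, Sod3 in 19, Prdx4 in 1 and Prdx3 and Cat in 0. Of the 10 fits with 1 library left out, 9 called Sod3, and all 9 kept vehicle 5. DESeq2 gave no p-value for Sod3, and that fit was counted as not called. In place of 7 members, 4 were called with the glial and neuronal marker mean as a covariate (3.31% of all genes were called lower there), 2 with the share on no exon (2.86%), 4 with the ribosomal mean (6.2%), 2 without vehicle 2 and vehicle 5 (3.42%), 1 in females only (2.07%) and 0 at an adjusted p under 0.05. Leaving out 1 library gave 6 or 7. With the replicate number as a block, 5 members were called (not Prdx6 or Sod3). The genes called over the whole table, 3046, became 4802 without a filter, 2106 with the marker mean, 1730 with the share on no exon, 2180 with the ribosomal mean, 1684 to 4848 with 1 library left out (GW2580 1 and GW2580 5), 6057 without vehicle 5 and GW2580 5, 794 in females, 4621 in males and 0 at an adjusted p under 0.05. Scaling by library size alone moved the median log2 fold change of all genes to 0.23 and the calls to 875 lower and 2123 higher, and the upper quartile gave 1230 and 1196, with the same 7 members called lower under both. The 6 partner genes, all lower, became 3 with upper quartile scaling, 2 with the marker mean, 2 with the share on no exon (1 lower and 1 higher), 3 to 10 with 1 library left out (3 lower without GW2580 1, and 9 lower and 1 higher without GW2580 5), 3 without vehicle 2 and vehicle 5 (2 lower and 1 higher), 1 in females and 0 at an adjusted p under 0.05.

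Sod3 turned to 0.26 without vehicle 2 and vehicle 5. Cat turned to 0.12 with the replicate block, 0.21 with the marker mean, 0.41 with the share on no exon, 0.0038 with the length trend removed (also with the replicate block), 0.61 without vehicle 5 (-0.66 to 0.61 over the libraries left out 1 at a time), 0.62 without vehicle 2 and vehicle 5, 0.68 without vehicle 5 and GW2580 5 and 0.56 in males. The difference in Sod2 to Sod1 was 0.68 without GW2580 5 and 0.77 without vehicle 5 and GW2580 5, with a range of 0.25 to 0.68 when 1 library was left out. That in Sod3 to Sod1 ranged from 0.10 to 1.48 and was 1.88 without vehicle 5 and GW2580 5. That in Prdx3 to Prdx1, 0.70 to 0.98 with 1 library left out, was 0.79 when paired by replicate number (exact sign-flip p = 0.125, with 0.0625 the smallest p possible). That in Prdx4 to Prdx1 ranged from 0.31 to 0.65, was 0.19 without vehicle 2 and vehicle 5, and was 0.55 with labels permuted within sex (exact p = 0.050) or paired by replicate number (exact p = 0.0625). The cause of these changes was not tested. The block uses numbers that the labels do not tie to pairs of mice, and it called 2554 genes.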
